A study of Mus musculus with 6 samples.

Results

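The genes described here are 6 genes that identify regulatory T cells (Treg cells): *Foxp3*, *Ikzf2*, *Ikzf4*, *Lrrc32*, *Ccr8* and *Il10*. They were chosen by name from the 31053 genes of the table, and all 6 were detected. The table carries 12 cell type labels, and none stands for a Treg cell. The genes were therefore followed across the labels that exist and across the 4 libraries. The study grew tumors of CT26, a colorectal carcinoma cell line of the Balb/c mouse, under the skin of Balb/c females that were 5 to 6 weeks old when obtained. Mice received vehicle or a bispecific molecule that joins an antibody to the checkpoint receptor PD-1 with the ligand of the costimulatory receptor GITR, and tumors were taken 5 days later and enriched for CD45+ cells with beads. The labels describe 6 samples, with 2 each for vehicle, a low dose and a high dose. They give the high dose as 30 mg/kg, and the low dose as 10 mg/kg in one field and as 30 mg/kg in another. The table holds single-cell counts of unique molecular identifiers (UMIs, each standing for 1 captured transcript) for 33961 cells in libraries named M1, M2, M5 and M6. These names matched none of the labels of the samples. The libraries were therefore not assigned to a treatment and are not replicates of a condition, so each library is given by its own value and no test between treatments was made.

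Treg cells are CD4+ T cells that restrain other immune cells, and in tumors they are studied as a brake on the antitumor response. *Foxp3* encodes the transcription factor that defines their lineage. *Ikzf2* (Helios) and *Ikzf4* (Eos) encode zinc finger proteins of the Ikaros family that act with FOXP3 or mark a stable Treg state. *Lrrc32* encodes GARP, a surface protein that holds latent TGF-β on the Treg cell. *Ccr8* encodes a chemokine receptor that is prominent on Treg cells inside tumors. *Il10* encodes interleukin 10, a cytokine that dampens myeloid and T cells and is also made by macrophages.

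The genes lie apart in the genome. On GRCm38, in the GENCODE M21 annotation, *Foxp3* spans chrX:7573644-7595245 on the plus strand and *Lrrc32* spans chr7:98489283-98502181 on the plus strand. *Ccr8* lies at chr9:120092114-120094906 on the plus strand. *Ikzf4* lies at chr10:128630843-128645991 on the minus strand. Chromosome 1 carries both *Ikzf2*, at chr1:69531214-69687245 on the minus strand, and *Il10*, at chr1:131019845-131024974 on the plus strand. The *Foxp3* locus overlaps 4 other annotated genes, of which the noncoding gene *Flicr* lies on the same strand, so a read in shared sequence could belong to either gene. The RefSeq promoter table of GRCm38.p6 held windows for 2 of the 6 genes, *Foxp3* and *Ccr8*, each reaching from 250 bases before to 50 bases after a transcript start. They are shown because only these genes had a window. Below, *Foxp3* was far higher in CD4 than in CD8 T cells in every library, whereas the ranges of *Ccr8* in these cells overlapped. Any part of these sequences in that contrast was not tested. The *Foxp3* window at chrX:7579426-7579725, plus strand, has 5 of the gene's 10 GENCODE transcript starts within 100 bases of its start, and its capitals mark a TATA box match. The *Ccr8* window lies at chr9:120091883-120092182, plus strand, and no motif searched was found in it.
Foxp3: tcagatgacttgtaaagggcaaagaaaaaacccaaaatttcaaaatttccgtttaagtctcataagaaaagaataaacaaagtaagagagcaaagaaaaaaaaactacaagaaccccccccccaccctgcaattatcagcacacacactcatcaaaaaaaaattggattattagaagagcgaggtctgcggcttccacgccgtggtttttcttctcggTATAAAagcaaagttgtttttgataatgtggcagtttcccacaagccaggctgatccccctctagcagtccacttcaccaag
Ccr8: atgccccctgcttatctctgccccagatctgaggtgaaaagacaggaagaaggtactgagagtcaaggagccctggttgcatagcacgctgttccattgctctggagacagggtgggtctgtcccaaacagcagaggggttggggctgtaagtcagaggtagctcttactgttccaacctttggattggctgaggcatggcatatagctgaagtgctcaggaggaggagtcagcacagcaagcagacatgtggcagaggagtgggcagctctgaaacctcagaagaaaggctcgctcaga
Guanine and cytosine made up 40.7% of the *Foxp3* window and 54.0% of the *Ccr8* window. The windows were searched on both strands for 7 motifs. TTCNNNGAA stood for the paired half-sites of STAT proteins. TGTTTAC stood for forkhead proteins, the family of FOXP3. TGANTCA stood for AP-1. TGACGTCA stood for the cyclic AMP element. TGTGGTT stood for Runx proteins. TGGAAA stood for the NFAT core. TATAAA stood for the TATA box. The TATA box letters were found in 13.6% of the 32851 promoters of the table, so their presence at *Foxp3* is common. A second *Foxp3* window of the table, at chrX:7580233-7580532, held a STAT match that overlapped an NFAT match. These letters were found in 8.30% and 21.4% of all promoters. A match is a description of these letters, not of a binding site.

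Libraries held between 7160 and 10294 cells, with median depths from 11399 to 21801 UMIs per cell. Cells labelled Stroma made up 27.2% to 61.2% of a library. The 5 T labels used below (T cell EFF, T cell MEM, T cell Naive, T cells and NKT) held 5851 cells (M1 1128, M2 1238, M5 1848 and M6 1637), with median depths between 7168 and 8453 UMIs. In each of these 5 labels at least 97.1% of cells carried a UMI of a CD3 chain, the defining part of the T cell receptor complex. Of the NKT cells, 39.2% carried a *Cd4* UMI, so this label is used by its name only. Of 33850 distinct cell barcodes, 111 occurred in more than 1 library. Levels are given as CPM, the UMIs of a gene summed over cells and scaled so that all UMIs of those cells sum to 1000000, with exact 95% Poisson intervals where stated. Shares of cells are given after each cell was thinned at random to 2000 UMIs, with exact 95% binomial intervals. Both intervals cover counting error only.

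*Foxp3* was highest in the cells labelled T cells and NKT and was almost absent from NK, B and Stroma cells. The table held 4141 *Foxp3* UMIs in 1411 cells, and the T labels held 66.4% of them. In the label T cells, the level was 193 CPM in M1, 160 CPM in M2, 283 CPM in M5 and 225 CPM in M6. In NKT it was 63.4, 151, 248 and 230 CPM in the same order of libraries. These labels were the highest ones in every library, but their ranges overlapped, so their order relative to each other is not resolved. The M1 and M2 values of the label T cells rest on few UMIs. T cell MEM followed with 11.0, 15.4, 77.0 and 78.8 CPM, and T cell EFF with 4.26, 6.33, 27.7 and 31.8 CPM. M1 was the lowest and M6 the highest library in both labels. T cell Naive, with 13 UMIs, had 0 in M1 and M2 and 98.9 and 97.0 CPM in M5 and M6. The lower neighbours, Myeloid at 11.5 CPM and ILC at 11.0 CPM over all libraries, overlapped with T cell EFF in their ranges over libraries. After thinning, 28.8% of the label T cells (57 of 198; interval 22.6 to 35.6) and 24.8% of NKT cells (177 of 713; interval 21.7 to 28.2) carried *Foxp3*, at median depths before thinning of 4492 and 4287 UMIs. NK cells, which should lack the gene, gave 0.0711% (3 of 4218; median depth 5397 UMIs), and no B cell of 112 carried it (median depth 2811 UMIs), which allows a share of up to 2.68%, taken as 3 counts of the total. Among *Foxp3*-positive cells of the T labels, 31.2% had a single *Foxp3* UMI and 22.3% had 5 or more, with at most 15 in a cell.

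**Figure D1:**
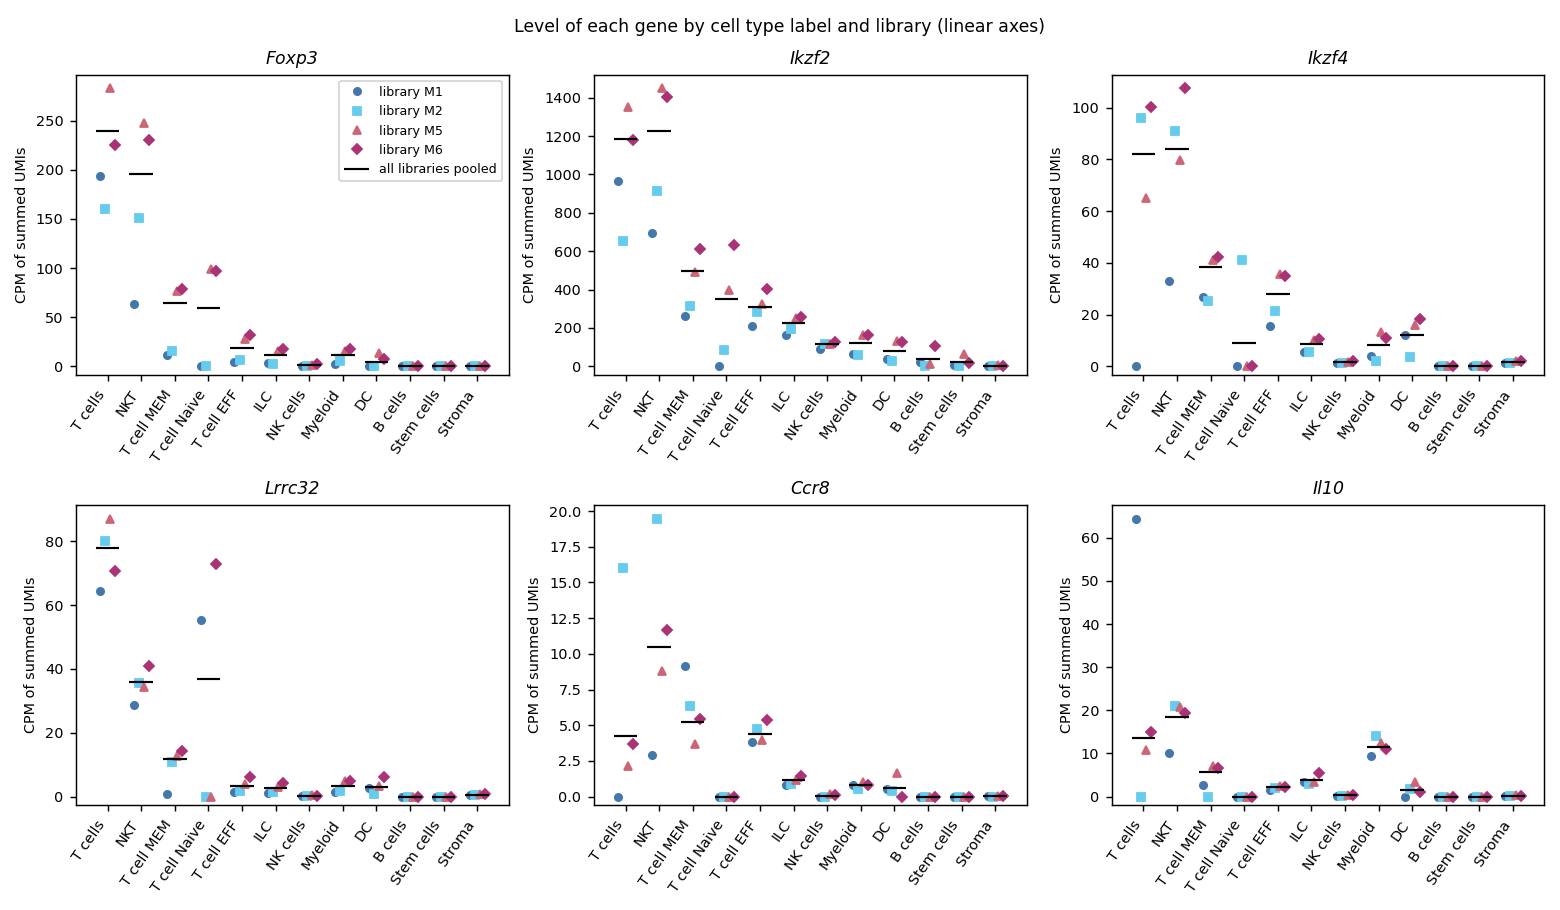
Level of each gene in CPM of summed UMIs (vertical, linear, 1 panel per gene) by cell type label (horizontal); colored symbols are the 4 libraries and black lines the libraries pooled. *Foxp3* is at 239 CPM in the label T cells and 196 CPM in NKT with the libraries pooled, where the library ranges overlap, and *Il10* in Myeloid (11.6 CPM) lies close to its highest T labels.

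*Ikzf2* was far more widespread than the other transcription factors, reaching into cytotoxic T cells and innate lymphocytes. It was detected in 10052 of the 33961 cells. Its level in NKT was 695 CPM in M1, 912 CPM in M2, 1448 CPM in M5 and 1404 CPM in M6. In the label T cells it was 966, 655, 1353 and 1180 CPM. These labels overlapped each other, and both lay above T cell MEM, whose libraries ran from 263 to 614 CPM. T cell EFF reached 307 CPM and ILC 224 CPM over all libraries, and in contrast to *Foxp3* the NK cells stood at 115 CPM. After thinning, 37.2% of T cell EFF cells, 31.0% of ILC cells and 16.9% of NK cells carried an *Ikzf2* UMI, against 0.511% of Stroma cells. *Ikzf4* was also highest in NKT and the label T cells with the libraries pooled, but the ranges of neighbouring T labels over libraries overlapped. Over all libraries it was at 84.0 CPM in NKT, 82.1 CPM in the label T cells, 38.4 CPM in T cell MEM and 27.8 CPM in T cell EFF. By library, NKT ran 33.2, 90.8, 79.9 and 107 CPM, so M1 was low and M2 was not. No *Ikzf4* UMI was found in the 11 cells of M1 labelled T cells. Stroma cells held 23.6% of all *Ikzf4* UMIs, although at a level of 1.50 CPM.

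*Lrrc32* was highest in the label T cells in 3 libraries and in T cell Naive in 1. In the label T cells it was at 64.4 CPM in M1, 79.9 CPM in M2, 87.0 CPM in M5 and 70.6 CPM in M6. In NKT it was at 28.8, 35.7, 34.4 and 40.8 CPM. The ranges of these labels did not overlap, but the M1 value of the label T cells rests on 3 UMIs. T cell Naive, with 8 UMIs, ran from 0 to 72.8 CPM and overlapped both. The ranges of NKT and T cell MEM, which ran from 0.918 to 14.4 CPM, did not overlap either. The level then dropped to 3.46 CPM in T cell EFF. Stroma held 32.7% of the *Lrrc32* UMIs at 0.633 CPM, and these were not spread evenly. The 163 Stroma cells with an *Lrrc32* UMI had a *Col3a1* level (a collagen gene of fibroblasts) of 6340 CPM, against 93.8 CPM in the other Stroma cells, and their level of *Kdr*, a receptor of endothelial cells, was 17.9 against 0.159 CPM. *Cd3e* was also higher in them, at 65.9 against 2.08 CPM, and 47.2% against 17.2% of cells had a CD3 UMI. *Cd8a* was at 4.55 against 1.62 CPM and *Cd4* at 0.854 against 0.267 CPM. The source of these transcripts was not tested. Stroma cells with a CD3 UMI had 1.50 CPM of *Lrrc32* and those without had 0.398 CPM. *Ccr8*, the chemokine receptor, was rare. Only 460 *Ccr8* UMIs were counted, of which 50.4% lay in T cell EFF. NKT was at 10.5 CPM over all libraries, from 2 UMIs (2.88 CPM) in M1 to 12 UMIs (19.5 CPM) in M2. NKT, T cell MEM (5.19 CPM), T cell EFF (4.41 CPM) and the label T cells (4.28 CPM, 5 UMIs) overlapped in their ranges over libraries, so no order can be read among them. NK cells held 3 *Ccr8* UMIs in 4398 cells.

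*Il10* had a second main source in myeloid cells. Of its 1128 UMIs, the Myeloid label held 38.9%, ILC held 23.6% and the T labels together 23.5%. In NKT the level was 10.1 CPM in M1, 21.1 CPM in M2, 20.8 CPM in M5 and 19.4 CPM in M6. In Myeloid cells it was 9.31, 14.1, 12.3 and 11.0 CPM, which overlapped with NKT. The label T cells rested on 16 UMIs and ran from 0 in M2 to 64.4 CPM in M1, the latter from 3 UMIs. A few cells carried much of the signal: in ILC, 10 cells held 126 of 266 *Il10* UMIs.

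The T-labelled cells were then split by the coreceptor UMIs they carried, which none of the 6 genes had defined. Cells with a *Cd4* UMI and no *Cd8a* or *Cd8b1* UMI (CD4 cells, 766) were compared with cells with a CD8 chain and no *Cd4* UMI (CD8 cells, 3937). *Foxp3* was at 88.9 CPM in M1, 189 CPM in M2, 271 CPM in M5 and 211 CPM in M6 in CD4 cells. In CD8 cells it was at 1.32, 2.16, 8.54 and 6.27 CPM, and no library of one class reached any library of the other. *Lrrc32* separated the classes in the same way. Its CD4 cells stood at 41.0, 52.1, 44.6 and 41.3 CPM, and its CD8 cells ran from 0.527 to 2.36 CPM. For *Il10*, CD4 cells ran from 11.4 to 23.9 CPM and CD8 cells from 0.791 to 1.47 CPM, again without overlap. The Ikaros family genes differed less. *Ikzf2* was at 581 to 1267 CPM in CD4 cells against 199 to 347 CPM in CD8 cells, and *Ikzf4* at 38.7 to 102 CPM against 16.0 to 31.4 CPM. *Ccr8* alone overlapped: CD4 cells ran from 0 in M1 to 23.9 CPM in M2, and CD8 cells from 3.76 to 5.18 CPM. The CD8 cells held 211 of the 334 *Ccr8* UMIs of the T labels. Cells with neither coreceptor (771, median depth 3903 UMIs) had 165 CPM of *Foxp3* over all libraries, and cells with both (377) had 67.9 CPM at a median depth of 18969 UMIs. The part that depth and mixed droplets play in these classes was not tested.

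**Figure D2:**
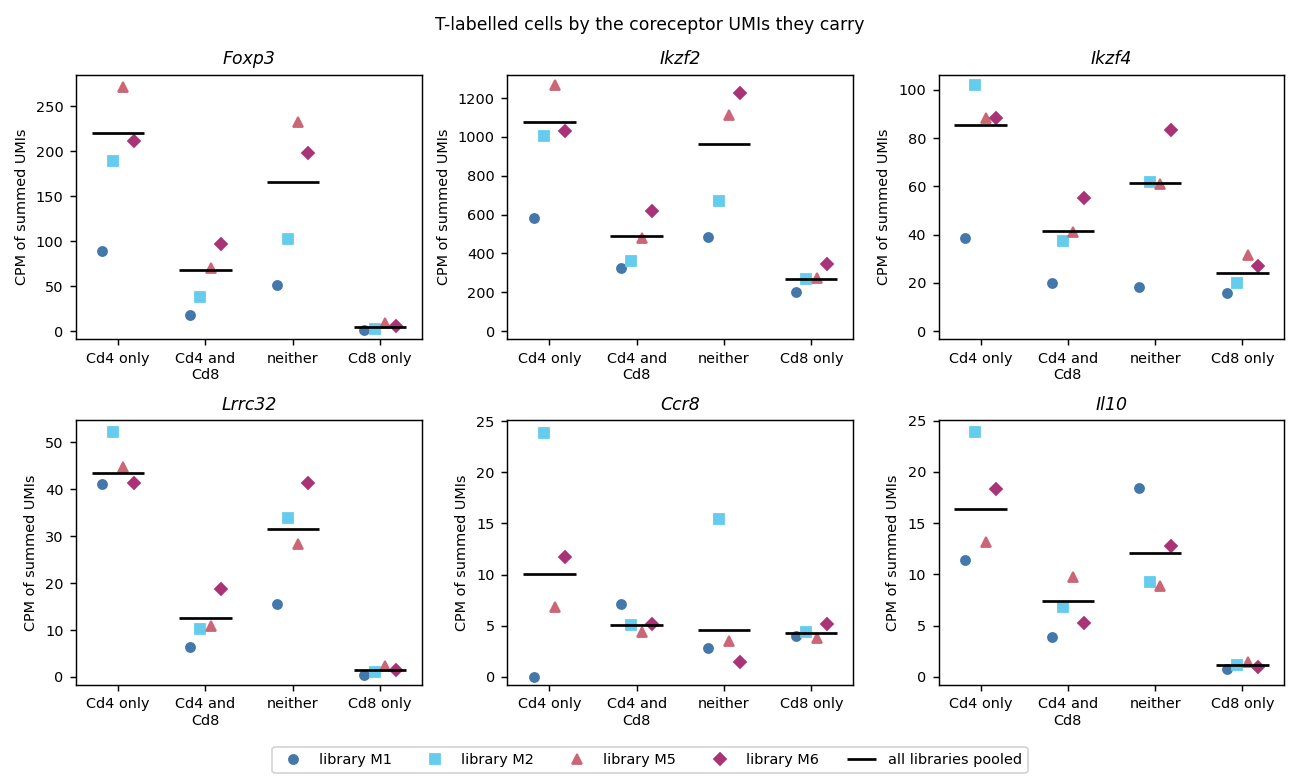
Level of each gene in CPM of summed UMIs (vertical, linear) in T-labelled cells that carried a UMI of *Cd4* only, of *Cd4* and a CD8 chain, of neither, or of a CD8 chain only (horizontal); symbols are libraries and black lines the libraries pooled. With the libraries pooled, CD4 and CD8 cells stand at 220 and 4.92 CPM for *Foxp3*, 43.4 and 1.46 CPM for *Lrrc32* and 16.4 and 1.14 CPM for *Il10*, against 10.1 and 4.29 CPM for *Ccr8*, whose library ranges overlap.

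The libraries differed in how much of the T cell compartment carried *Foxp3*. Over all T-labelled cells, *Foxp3* was at 8.31 CPM in M1, 15.6 CPM in M2, 53.4 CPM in M5 and 65.3 CPM in M6. After thinning, the share of T-labelled cells that carried it was 2.37%, 3.43%, 11.3% and 11.4% from M1 to M6, and 7.98% did over all libraries (451 of 5652; interval 7.29 to 8.72). Median depths of T-labelled cells were 8179, 7392, 8453 and 7168 UMIs from M1 to M6. Those of CD4 cells, which were picked before thinning, were 3631, 4217, 5517 and 5635 UMIs. The part of depth in these differences was not tested. CD4 cells made up 6.47%, 6.06%, 15.2% and 20.6% of T-labelled cells from M1 to M6. Within CD4 cells, 10.3% in M1 (7 of 68; interval 4.24 to 20.1), 22.5% in M2 (16 of 71; interval 13.5 to 34.0), 36.4% in M5 (100 of 275; interval 30.7 to 42.4) and 28.4% in M6 (93 of 328; interval 23.5 to 33.6) carried *Foxp3*. M1 lay below M5 and M6 without overlap of the counting intervals, while the interval of M2 overlapped with all others. The highest library was 7.86 times the lowest for *Foxp3* over T-labelled cells, against 4.12 times for *Lrrc32*, 2.34 times for *Ikzf2*, 2.59 times for *Ikzf4*, 2.17 times for *Il10* and 1.41 times for *Ccr8*, whose levels were 4.19, 5.70, 4.13 and 5.82 CPM. Within CD4 cells this ratio was 3.05 for *Foxp3*, 2.63 for *Ikzf4*, 2.18 for *Ikzf2*, 2.10 for *Il10* and 1.27 for *Lrrc32*. *Ccr8* in CD4 cells ran from 0 in M1 to 23.9 CPM in M2.

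In single T-labelled cells, *Foxp3* occurred together with *Ikzf2* in most cells, and a difference in *Ccr8* was not detectable at this depth. After thinning, 89.6% of *Foxp3*-positive cells (404 of 451; interval 86.4 to 92.2) carried *Ikzf2*, against 39.3% of *Foxp3*-negative cells. In the libraries this share was 80.8%, 87.5%, 90.2% and 90.6% from M1 to M6, and each exceeded the negative cells of its library, which ran from 31.5% to 46.1%. The positive cells were shallower before thinning, with a median of 5483 against 8282 UMIs. Myeloid transcripts differed by *Foxp3* in some of these labels. *Lyz2* was at 818 CPM in positive and 280 CPM in negative T-labelled cells, and in T cell EFF at 1055 and 274 CPM with median depths of 16232 and 9854 UMIs. In NKT *Lyz2* was at 148 and 137 CPM. Their part in the shared detection was not tested. Read from the other gene, 16.5% of *Ikzf2*-positive cells carried *Foxp3*. *Ikzf4* was found in 23.9% of positive cells (108 of 451) and 5.90% of negative cells. *Lrrc32* was found in 13.5% (61 of 451; interval 10.5 to 17.0) and 1.31% (68 of 5201; interval 1.02 to 1.65), and of the 129 cells with *Lrrc32*, 47.3% carried *Foxp3*. For *Il10* the shares were 3.77% (17 of 451) and 0.481% (25 of 5201). The counting intervals of these genes did not overlap between positive and negative cells. For *Ccr8* they did, at 1.77% (8 of 451; interval 0.769 to 3.47) and 0.981% (51 of 5201; interval 0.731 to 1.29). Within CD4 cells (216 positive, 526 negative), *Ikzf2* was found in 93.5% and 48.1%, *Ikzf4* in 25.5% and 8.94% and *Lrrc32* in 13.9% and 5.32%, without overlap of the intervals. For *Il10* in CD4 cells the intervals did overlap, at 4.17% (interval 1.92 to 7.76) and 2.09% (interval 1.05 to 3.71). After thinning, no T-labelled cell carried all 6 genes, and 1 cell carried *Foxp3* with 4 others. None of the others was found in 8.20% of *Foxp3*-positive and 57.1% of *Foxp3*-negative cells.

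The receptors that the bispecific molecule addresses differed between these cells. *Tnfrsf18*, which encodes GITR, was found in 76.1% of *Foxp3*-positive (interval 71.8 to 79.9) and 51.6% of *Foxp3*-negative T-labelled cells. *Pdcd1*, which encodes PD-1, was found in 25.7% (interval 21.7 to 30.0) and 55.5%. The *Foxp3*-negative cells were mostly CD8 cells, since *Cd8a* was found in 56.4% of them and in 8.20% of the positive ones. Within CD4 cells *Pdcd1* was found in 23.6% of positive (51 of 216) and 21.7% of negative cells (114 of 526), and the intervals of these shares overlapped. *Tnfrsf18* was found in 79.6% (interval 73.6 to 84.8) and 66.7% (interval 62.5 to 70.8) within CD4 cells. *Il2ra*, the alpha chain of the interleukin 2 receptor, was found in 44.0% and 19.4% of these cells.

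**Figure D3:**
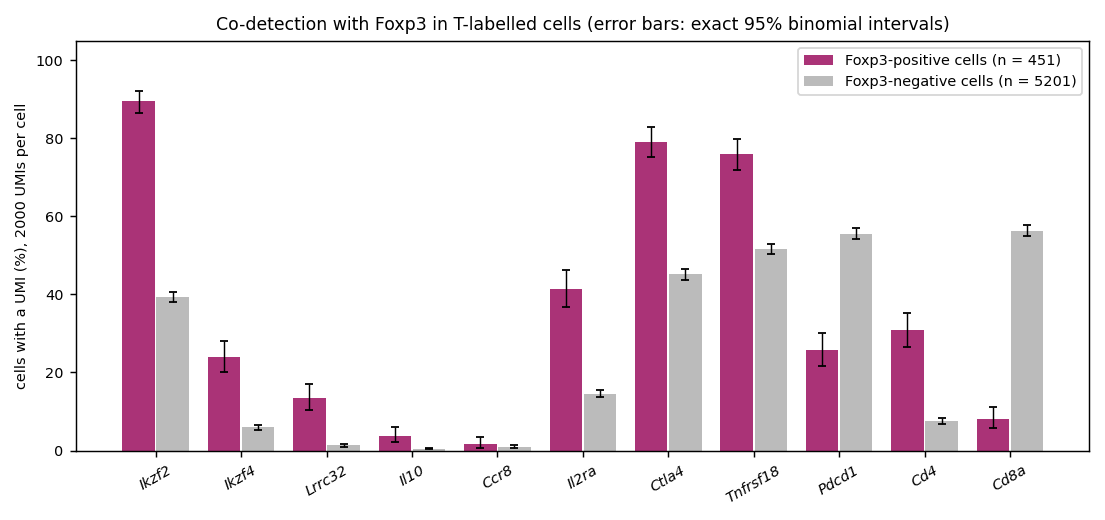
Share of T-labelled cells with a UMI of each gene (vertical, percent, from 0) after thinning to 2000 UMIs, in 451 *Foxp3*-positive and 5201 *Foxp3*-negative cells; error bars are exact 95% binomial intervals. *Ikzf2* (89.6% against 39.3%) and *Lrrc32* (13.5% against 1.31%) are higher in positive cells, the intervals of *Ccr8* overlap, and *Pdcd1* and *Cd8a* are lower.

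Outside the T labels, most *Foxp3*-positive cells also carried a CD3 UMI, but those labelled Stroma mostly did not. Of the 537 *Foxp3*-positive cells with another label, 468 (87.2%) had a CD3 UMI, against 24.2% of *Foxp3*-negative cells with these labels. ILC held 247 of them, with a median depth of 24333 UMIs against 9373 UMIs in other ILC cells, and Myeloid held 159, with 27954 against 7318 UMIs. Stroma held 87, of which 39 (44.8%) had a CD3 UMI, and the 48 others had 48 *Foxp3* UMIs. By label, 96.8% of positive and 43.3% of negative ILC cells had a CD3 UMI. In Myeloid these shares were 96.9% and 33.2%, and in Stroma 44.8% and 17.4%. *Lyz2*, a lysozyme gene of myeloid cells, was at 1491 CPM in the *Foxp3*-positive ILC cells and 431 CPM in the negative ones. In NK cells it was at 78.5 CPM in 28 positive and 134 CPM in negative cells, and in Myeloid cells at 6708 and 6621 CPM. In Myeloid cells with a CD3 UMI, *Foxp3* was at 18.5 CPM (991 cells), and in those without it was at 0.410 CPM (6 UMIs in 1689 cells). In ILC the same split gave 17.8 and 0.304 CPM. *Lrrc32* was at 5.27 CPM in Myeloid cells with a CD3 UMI and 0.410 CPM in those without, and *Ccr8* at 1.24 and 0.137 CPM. *Il10* was alike on both sides, with 11.2 CPM in Myeloid cells with a CD3 UMI (262 UMIs) and 12.1 CPM in those without (177 UMIs). In ILC, *Il10* split as *Foxp3* did, at 6.33 CPM with a CD3 UMI and 0.152 CPM (4 UMIs) without. *Ikzf2* in NK cells was at 117 CPM with and 114 CPM without a CD3 UMI. Cells without a CD3 UMI were shallower, with medians of 5462 against 17781 UMIs in Myeloid and 7660 against 13329 UMIs in ILC, and the part of doublets and of free RNA in these levels was not tested. Without cells of more than 3 times the median UMIs of their label and library, an alternative added after the data were seen, the T labels held 74.9% of *Foxp3* UMIs.

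**Figure D4:**
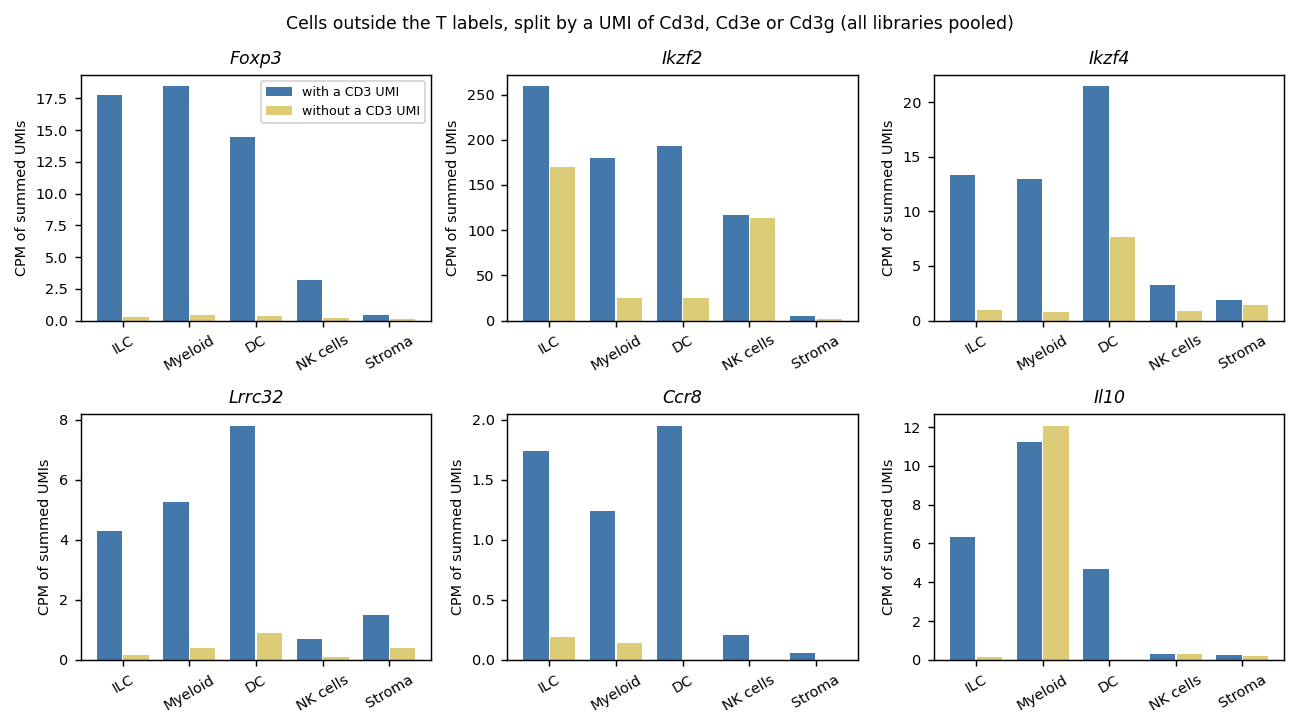
Level of each gene in CPM of summed UMIs (vertical, linear, from 0) in cells of 5 labels outside the T labels, all libraries pooled, split by whether a cell carried a UMI of *Cd3d*, *Cd3e* or *Cd3g*. In Myeloid cells *Foxp3* is at 18.5 CPM with and 0.410 CPM without a CD3 UMI, whereas *Il10* is at 11.2 and 12.1 CPM.

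To describe the cells that carry *Foxp3* across all genes, CD4 cells with a *Foxp3* UMI (364) were compared with CD4 cells without one (402) in each library. From M1 to M6 the positive cells numbered 15, 24, 157 and 168, and median depths were 5828 UMIs in positive and 5001 UMIs in negative cells. The gap was widest in the smallest libraries, at 5782 against 3421 UMIs in M1 and 6216 against 3783 UMIs in M2, with 5734 against 5362 UMIs in M5 and 6050 against 5391 UMIs in M6. Its part in the ratios was not tested apart from the thinned alternative. A gene with at least 20 UMIs was called when its ratio of CPM + 1 was at least 2-fold in the same direction in all 4 libraries. Of 9533 genes, 57 were called higher (0.598%) and 45 lower (0.472%), and the median log2 ratio of all genes was 0.10. *Ikzf2*, *Ikzf4* and *Lrrc32* were called higher, 3 of the 5 genes compared with *Foxp3*. When cells were picked and summed after thinning to 2000 UMIs, *Ikzf4* was higher in 3 of the 4 libraries and lost its call, while *Ikzf2* and *Lrrc32* kept theirs. *Ikzf2* was at 1017, 1694, 1717 and 1484 CPM in positive cells from M1 to M6 and at 281, 294, 581 and 388 CPM in negative cells, a median log2 ratio of 1.89. *Ikzf4* was at 67.1, 154, 123 and 118 CPM against 19.2, 48.3, 35.8 and 45.4 CPM, a median of 1.70. *Lrrc32* was at 83.8, 77.2, 60.0 and 63.5 CPM against 11.5, 26.4, 21.2 and 9.45 CPM, a median log2 ratio of 2.07. It was 3.30 after thinning and 4.04 over all T-labelled cells, where the negative cells were mostly CD8 cells. For these 3 genes the value of every library of positive cells lay above that of every library of negative cells, but some values rest on few UMIs. The nearest values of *Ikzf4* came from 12 UMIs in M1 positive cells and 11 UMIs in M2 negative cells. *Lrrc32* had 15, 18, 69 and 96 UMIs in positive and 3, 6, 16 and 10 UMIs in negative cells. *Ccr8* and *Il10* were not called. *Ccr8* had 35 UMIs in positive and 19 in negative cells, 1.38-fold with a counting interval of 0.767 to 2.55, and was higher in 2 libraries. *Il10* had 62 and 26 UMIs, 1.78-fold with an interval of 1.11 to 2.94, and was higher in M5 and M6 and lower in M1 and M2. *Il10* was called higher when all T-labelled cells were compared, where the negative cells were mostly CD8 cells. The number of genes called higher was 113 without M1, 88 without M2, 153 without M5 and 82 without M6, and the number called lower was 69, 54, 71 and 50.

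Among 36 genes of a Treg programme, 34 could be compared, of which 2 were called higher and none lower, and 20 were higher in all 4 libraries, as were 1368 of the 9533 genes. Their median log2 ratio was 0.76 against 0.10 for all genes. *Itgb8*, an integrin chain that helps release active TGF-β, was at 67.1, 111, 57.4 and 75.5 CPM in positive cells and at 3.85, 39.6, 18.6 and 15.1 CPM in negative cells. *Izumo1r*, the folate receptor family member FR4, was at 251, 240, 159 and 140 CPM against 80.8, 119, 65.0 and 54.8 CPM. Several other genes were higher in every library without passing 2-fold in all. *Il2ra* had a median log2 ratio of 1.47, *Itgae*, an integrin chain of tissue-resident cells, 1.72, and *Klrg1*, a receptor of differentiated cells, 1.82. *Tnfrsf9*, the costimulatory receptor 4-1BB, had 1.26, the checkpoint receptor *Ctla4* 1.05 and *Tnfrsf18* 0.56. *Pdcd1* was the only gene of this list that was lower in every library, at 50.3, 103, 176 and 165 CPM in positive and 204, 193, 267 and 280 CPM in negative cells. The share of CD4 cells with *Pdcd1* after thinning did not follow this, since it was higher in positive cells in M2 (18.8% against 9.09%) and M5 (27.0% against 23.4%) and lower in M1 and M6. *Nrp1*, a marker of thymus-derived Treg cells, was not called, at 11.2, 4.29, 51.3 and 37.1 CPM in positive and 57.7, 57.1, 45.1 and 41.6 CPM in negative cells, a median log2 ratio of −1.22. The M1 and M2 values in positive cells rest on 2 and 1 UMIs. With the libraries pooled the ratio was 0.833, with a counting interval of 0.635 to 1.09.

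Of 12 genes of conventional CD4 T cells 11 could be compared, of which 3 were called lower in *Foxp3*-positive cells and none higher. Of all 9533 genes, 45 (0.472%) were called lower. Of these 11, 8 were lower in all 4 libraries, as were 854 of the 9533 genes, and their median log2 ratio was −1.07. *Cd40lg*, the helper ligand of CD40, had 7 UMIs in positive and 80 in negative cells, 15.3-fold lower (interval 7.08 to 39.2). *Il2*, the growth factor that Treg cells consume but do not make, had 7 and 61 UMIs, 11.6-fold lower (interval 5.32 to 30.2). Both *Cd40lg* and *Il2* reached the minimum of 20 UMIs through the negative cells alone. In M2, *Il2* had 0 UMIs in positive and 1 in negative cells, so its ratio there rests on the 1 CPM added. *Tcf7*, a transcription factor of naive and stem-like T cells, was 5.22-fold lower (interval 4.04 to 6.82), at 24.4 against 127 CPM. *Il17a* had 35 UMIs in positive and 0 in negative cells, so it was among the 11 genes through the positive cells alone. M2 held 25 of these UMIs in its 24 positive cells, M6 held 9, M5 held 1 and M1 none. *Il7r*, the interleukin 7 receptor, was not called, with a median log2 ratio of −0.63. In M1 it had 17 UMIs in positive cells and 88 (339 CPM) in negative cells, and from M2 to M6 it was at 236, 546 and 445 CPM against 563, 495 and 448 CPM.

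The partners of the genes were spread over other cells. Of 15 genes that encode relatives, ligands, receptors or handlers of the cargo, 13 could be compared in CD4 cells. *Itgav*, the integrin chain that pairs with the product of *Itgb8*, was called higher together with *Itgb8*, at 235 against 101 CPM. *Ccl1*, a ligand of CCR8, was called lower, with 6 UMIs in positive and 276 in negative cells, of which M1 held 203. Its level by library was 0, 0, 0.869 and 3.31 CPM in positive and 781, 8.79, 59.7 and 24.6 CPM in negative cells. By label, *Ccl1* was highest in NKT (59.2 CPM) and T cell EFF (54.8 CPM), but NKT ran from 0 in M2 to 288 CPM in M1. *Ccl8*, the other CCR8 ligand of the mouse, was a myeloid gene here, at 674, 892, 2060 and 816 CPM in Myeloid cells from M1 to M6. In CD4 cells it was at 0, 34.3, 538 and 60.9 CPM with *Foxp3* and at 77.0, 505, 127 and 59.5 CPM without. Its source in CD4 cells was not tested. *Il10ra*, the ligand-binding chain of the interleukin 10 receptor, was also highest in Myeloid cells, at 55.5 to 67.2 CPM. *Tgfb1*, the cargo of GARP, was at 469.7 CPM in NK cells and 282 CPM in NKT. In CD4 cells it was at 248 CPM with and 258 CPM without *Foxp3*, a ratio of 0.960 (interval 0.861 to 1.07). *Nrros*, which encodes a protein related to GARP that holds latent TGF-β on myeloid cells, was at 85.1 CPM in DC and 70.3 CPM in Myeloid cells. *Itgb8* was found mainly where *Foxp3* was, at 52.6 CPM in NKT and 45.3 CPM in the label T cells against 3.82 CPM in Myeloid cells. Among relatives, *Ikzf1* was lower in all 4 libraries of positive cells, at 76.1 against 116 CPM, and *Ikzf3* was at 82.6 against 43.5 CPM and higher in 3.

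**Figure D5:**
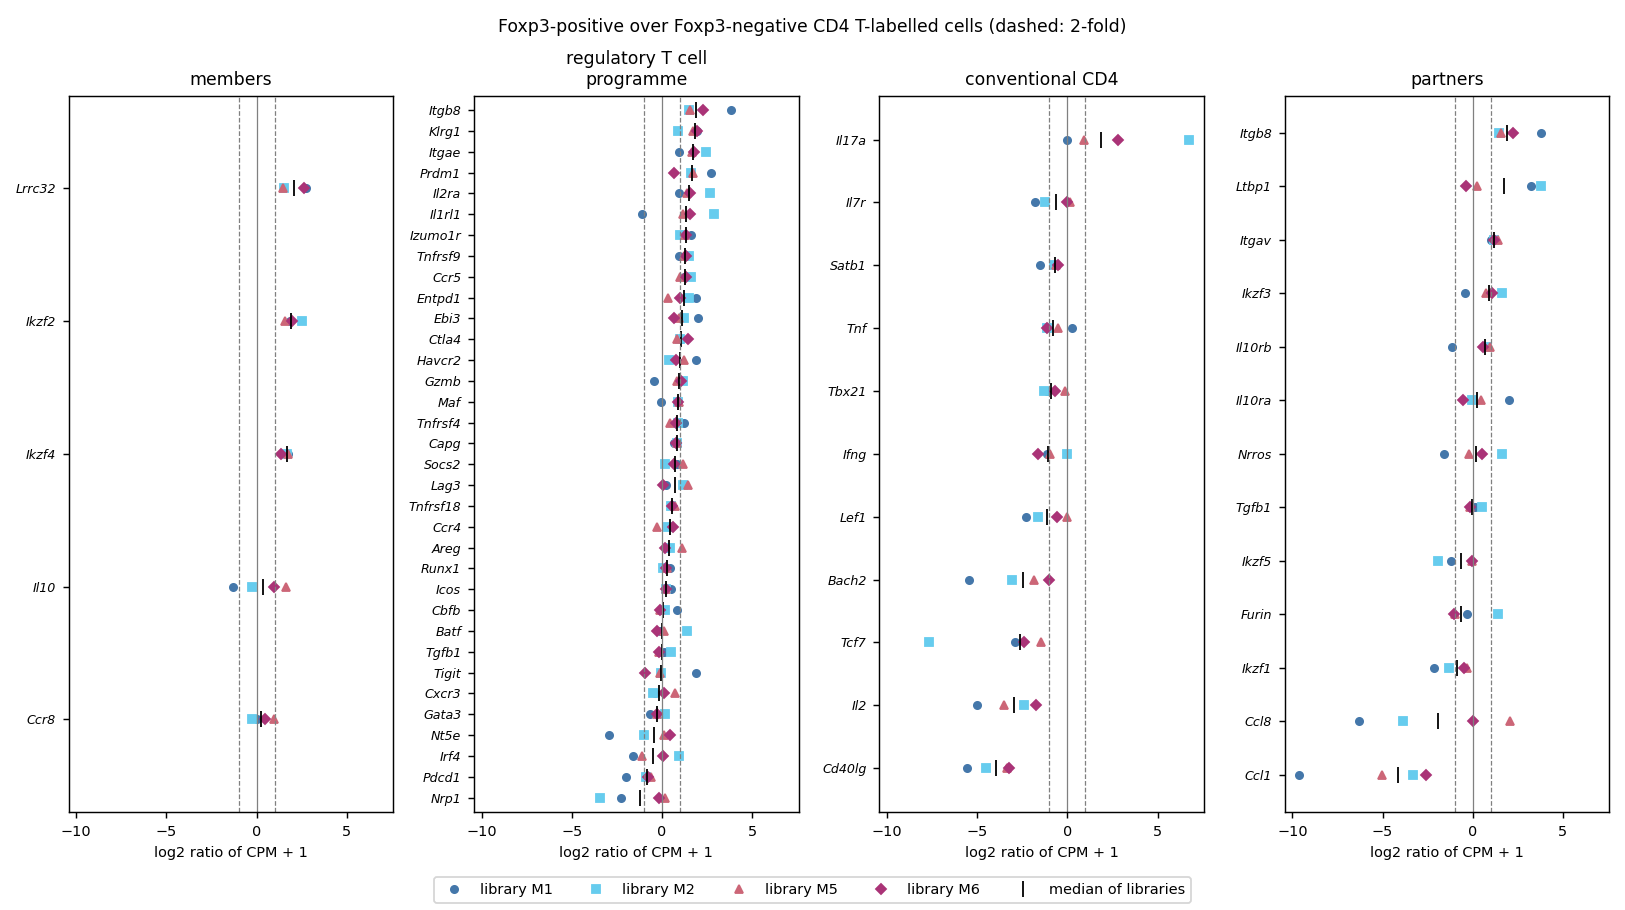
Log2 ratio of CPM + 1, *Foxp3*-positive over *Foxp3*-negative CD4 cells (horizontal), for the genes of 4 lists (vertical, ordered by median); symbols are libraries, black ticks their median, and dashed lines mark 2-fold in either direction. *Lrrc32*, *Ikzf2* and *Ikzf4* lie beyond 2-fold higher in all 4 libraries and *Cd40lg*, *Il2*, *Tcf7* and *Ccl1* beyond 2-fold lower.

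Over all genes, those with the largest ratios among the 57 called higher were rare transcripts, of which *Cdk14*, *Ednrb*, *Acot11* and *Ica1* had 1 UMI in negative cells. All 10 genes named next had fewer than 20 UMIs in negative cells, so they reached the minimum of 20 UMIs through the positive cells. All but *Itih5* and *Psmc3ip* had 0 UMIs in negative cells of both M1 and M2. Their ratios in these libraries therefore rest on the 1 CPM added. With 10 CPM added, 14 of the 57 genes kept their call. The genes were *Cdk14*, a cyclin-dependent kinase, *Rln3*, a relaxin peptide, *Ncmap*, a myelin protein, *Ednrb*, an endothelin receptor, *Itih5*, *Cacna1s*, a calcium channel subunit, *Dlg4*, *Acot11*, *Psmc3ip* and *Ica1*. *Rln3* had 122 UMIs in positive and 17 in negative cells, 5.37-fold higher (interval 3.22 to 9.52). *Cdk14* had 38 and 1 UMIs, a ratio of 28.4 with an interval of 4.80 to 1152, and *Itih5* had 61 and 3, a ratio of 15.2 with an interval of 4.97 to 75.8. The wide intervals reflect the few UMIs of negative cells. At the other end, *Tnfsf8*, which encodes CD30 ligand, was at 354, 391, 313 and 355 CPM in negative cells and at 0, 0, 12.2 and 31.1 CPM in positive cells, 17.4-fold lower over all libraries (interval 13.4 to 22.9). *Ccl1*, *Cd40lg*, *Galnt9* and *Tdrp* followed it. These genes had 6, 7, 4 and 7 UMIs in positive cells, so they reached the minimum of 20 UMIs through the negative cells.

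Genes with the most similar pattern over labels were sought over 38 sums of a label within a library, each of at least 20 cells, among 14209 other genes. Correlations used log2(CPM + 1), and the sums of a library share its preparation and depth, so they are descriptions. *Foxp3* was most like *Izumo1r* (Pearson r = 0.961), *Sgip1* (0.946) and *Ttn* (0.942), and *Lrrc32* stood at rank 6 (0.932). *Lrrc32* was most like *Itgb8* (0.950), *Foxp3* (0.932) and *Izumo1r* (0.929). *Ikzf2* was most like *Icos* (0.968), *Ctla4* (0.964) and *Gata3* (0.950), genes of T cells and innate lymphocytes, and *Foxp3* stood at rank 237 (0.828). *Ikzf4* was most like *Cnih2* (0.899), *Mxi1* (0.897) and *Sdcbp2* (0.891). *Ccr8* was most like *Crmp1* (0.895), *Cnih2* (0.891) and *Neb* (0.887), with *Ikzf4* at rank 4 (0.873) and *Foxp3* at rank 106 (0.745). *Il10* was most like *Dgat2* (0.875), *Pparg* (0.848) and *N4bp1* (0.845), of which *Pparg* encodes a nuclear receptor of macrophages and fat cells.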

How the data were processed

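Tumor cells enriched for CD45 were profiled by droplet single-cell RNA sequencing. The authors aligned and counted the reads with Cell Ranger 3.0.2 on GRCm38 (mm10), per the labels, and deposited 1 table of UMI counts without normalization, with a label for each cell from its best correlation with reference profiles of sorted immune cells. Each of the 33961 cells had between 1220 and 213981 UMIs (median 16117), and 23764 genes had a UMI. No cell was removed and no doublet caller was run.

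The 4 library names matched 0 of the labels of the 6 samples, so libraries were not grouped and treatments were not compared. Ratios within a library are given as values, and no p-value is given. Counts were summed per label and library and scaled to CPM. Shares used cells thinned to 2000 UMIs (seed 20), leaving out shallower cells (199 of 5851 T-labelled cells). Ratios added 1 CPM and used genes with at least 20 UMIs. The steps were checked on simulated data. Python 3.11.15, numpy 2.4.6, scipy 1.17.1, pandas 2.3.3 and matplotlib 3.10.9 were used.

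The 6 genes and the lists were chosen with earlier results of these data known. Genes named beyond the lists were the 10 with the largest median log2 ratio among those called higher and the 5 lowest among those called lower, and the 3 most alike for each of the 6 genes. Alternatives changed the thinning depth, pseudocount, UMI minimum, cell filters, cells compared and libraries included.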

Additional observations from a re-analysis of the deposited data

How the results depend on the processing

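Of 183 recomputed values 44 left their limits, which were the 95% counting interval for levels and shares and 1.5 times for counts of genes. Single genes were judged by their call and direction alone, and no called direction turned. The median log2 ratio of *Il10*, which was not called, was −0.29 without M5 or M6. Without cells of more than 3 times the median UMIs of their label and library, *Foxp3* in the label T cells was at 273 CPM and *Ikzf2* in NKT at 1289 CPM, and the medians of the library levels were 209 and 1158 CPM. Leaving out 1 library gave 211 to 252 CPM for *Foxp3* in the label T cells, 1115 to 1331 CPM for *Ikzf2* in NKT and 69.9 to 94.4 CPM for *Ikzf4* in NKT. The *Foxp3* share of T-labelled cells was 5.20% when thinned to 1000 UMIs, 11.1% at 4000 UMIs, 14.9% without thinning and 4.34% over all cells with a CD3 UMI, and it ran from 6.42% without M5 to 9.33% without M1. At 1000 UMIs, 4000 UMIs and without thinning, *Foxp3*-positive cells carried *Ikzf2* in 73.0%, 96.4% and 97.8% (negative cells 27.4%, 49.8% and 61.9%), *Ikzf4* in 11.5%, 33.9% and 49.4% (2.94%, 9.36% and 18.5%), and *Lrrc32* in 7.57%, 22.0% and 30.8% (1.03%, 1.21% and 1.63%). *Ccr8* was found in 3.64% against 2.21% of negative cells at 4000 UMIs and 7.78% against 4.68% without thinning, and *Il10* in 9.50% against 1.15% without thinning. Shares of cells therefore depend on the depth chosen. Genes called higher numbered 14 with 10 CPM added, 17 with at least 200 UMIs, 108 over all T-labelled cells, 21 with cells picked after thinning and 82 to 153 without 1 library, and genes called lower numbered 23, 20, 20, 59 and 50 to 71. Many of the genes changed: of the 57 higher and 45 lower, 6 and 19 were shared after thinning, 22 and 3 over all T-labelled cells, 38 and 38 with at least 2 *Foxp3* UMIs, and 32 and 32 without cells of high UMIs. Fewer libraries leave a weaker demand on a call. After thinning, *Ikzf4* no longer passed 2-fold in every library (median log2 ratio 1.86), and over all T-labelled cells *Il10* passed it (2.54). The median log2 ratio of *Lrrc32* was 3.30 and 4.04 under these alternatives and 1.51 without M1 or M6. Over all T-labelled cells, 77.2% of *Foxp3*-negative and 11.1% of *Foxp3*-positive cells were CD8 cells. The ratios over these cells therefore also hold the contrast of CD4 with CD8 cells. Without Stroma the r of each first-ranked pair stayed close, but other genes led for some: *Slc22a15* and *Hacd3* replaced *Icos* and *Ctla4* for *Ikzf2*, where *Foxp3* moved from rank 237 to 93, *Samsn1* led for *Ikzf4*, and *Itgb8* replaced *Sgip1* for *Foxp3*. No paired analysis was possible because the replicate numbers of the treatment groups could not be carried to the libraries. The ratios by *Foxp3* were taken within each library and are given without a test. M1 and M2 held 15 and 24 *Foxp3*-positive CD4 cells, which limits their ratios.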

Other observations

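The values of the libraries, which carry no treatment here, fell apart for *Foxp3* over T-labelled cells. The levels were 8.31 CPM in M1, 15.6 CPM in M2, 53.4 CPM in M5 and 65.3 CPM in M6. The share of Stroma cells in the same libraries was 61.2%, 57.1%, 27.2% and 30.9%, and T-labelled cells made up 11.0%, 13.8%, 25.8% and 21.6% of all cells. *Ccr8* did not follow this order, with 4.19, 5.70, 4.13 and 5.82 CPM over T-labelled cells. CD8 cells held 211 of its 334 UMIs in the T labels, and within CD4 cells it ran from 0 to 23.9 CPM. The difference between libraries was not tested.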
